A study of Mus musculus with 17 samples.

Results

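The lateral lineage was compared between its earliest and its latest sample, 8 hours and 14 days after electroporation. The series holds 34 samples on 17 arrays of 2 colours, and each array carries a dorsal sample in Cy3 and a lateral sample in Cy5. The lateral samples were taken by their dye (Cy5) and their time label, which gave 2 samples at 8 hours and 4 at 14 days, 6 of the 17 lateral samples. Per the labels, CD1 mouse pups received an in vivo electroporation of progenitors in the lateral wall of the subventricular zone (SVZ) on postnatal day 1. Cells carrying GFP were then sorted by flow cytometry after 8 hours or 14 days. Strain, age at electroporation and sort are common to all samples, and by label the 2 groups differ in time alone. The promoter that drives GFP, and whether animals were pooled, are not given in the sources used here, and no unelectroporated cells enter the comparison. The labels name the RNA of the dorsal channel polyA and that of the lateral channel total, and both went through the same amplification by PCR. The samples are called biological replicates there. The p-values take the spread between these samples as error. In such bulk samples fewer cells of a type and less RNA per cell cannot be told apart.

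The SVZ lines the lateral ventricle and makes neurons after birth. Radial glia and stem cells of its walls give rise to dividing intermediate progenitors, these to neuroblasts, and the neuroblasts travel through the rostral migratory stream into the olfactory bulb, where they become interneurons that use GABA. The lateral wall derives from the embryonic ganglionic eminences and is marked by homeobox factors of the Dlx family. The same walls also make ependymal cells, astrocytes and oligodendrocyte precursors. Electroporation targets cells that touch the ventricle, so that GFP marks these cells first and their descendants later.

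In the lateral channel, the share of probes well above background was 67.2 and 72.4% at 8 hours and 56.4 to 69.3% at 14 days, and the median background-subtracted signal was 314 and 396 at 8 hours against 69.0 to 226 at 14 days. The 2 samples of 8 hours correlated across genes at 0.951, those of 14 days at 0.697 to 0.896, and samples of different groups at 0.694 to 0.846. The median SD of a gene was 0.24 on the log2 scale at 8 hours and 0.75 at 14 days, and replicates 1 and 2 of 14 days had the lowest mean correlation to the other samples of that time. Both arrays of 8 hours lay on 1 slide, together with replicate 3 of 4 days and replicate 3 of 7 days, and the 4 arrays of 14 days filled another slide. Slide and group therefore cannot be told apart in this comparison, and the difference of the 4-day and 7-day samples of the first slide from the mean of 8 hours is given beside the results as a measurement within 1 slide. The scanner software marked 0.438 and 0.701% of spots as outliers at 8 hours but 1.33 to 2.61% at 14 days. These spots were left out, so that 38 of the 139 genes named by rule lack a value in at least 1 of the 6 samples.

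Marker genes were read for presence in the 6 samples, which does not check the wall or the time labels. Nestin (Nes), vimentin (Vim) and Slc1a3, genes of radial glia, were well above background in all 6 samples, as were Dlx2 and the neuroblast genes Dcx and Tubb3. Dlx2 was also well above background in the dorsal channel, in 2 samples of 8 hours and 4 of 14 days. Markers of cells that do not descend from the SVZ wall were present too, most of all microglia and macrophage genes, which are given with the immune genes.

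The first comparison asked which genes changed in the lateral lineage over the time in which its cells leave the ventricle and mature. Levels are log2 intensities of the lateral channel after normalization, and a difference is 14 days minus 8 hours ± SE (n = 4 and 2). The SE is the moderated one of limma, whose spread comes from all 17 lateral samples and not from these 6 alone. A call is an adjusted p under 0.05 in limma. Of 25540 genes tested, 280 were called higher at 14 days, which is 1.1%, and 289 lower, which is 1.13%. The median difference of all genes was 0.24, and 16362 of the 25540 had a positive difference. Among the gene lists described below, 23 of 34 interferon response and 10 of 20 neutrophil genes were called lower, and 12 of 30 genes of migrating neuroblasts, 8 of 28 of GABAergic interneurons and 8 of 41 of synapses higher. A total of 139 of the 569 calls held in each of the 6 fits that leave out 1 sample, and without either sample of 8 hours the count fell to 235 or 253. Among the 139, the 24 genes with the largest differences in either direction, subject to the naming rule, are plotted by sample.

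**Figure D1:**
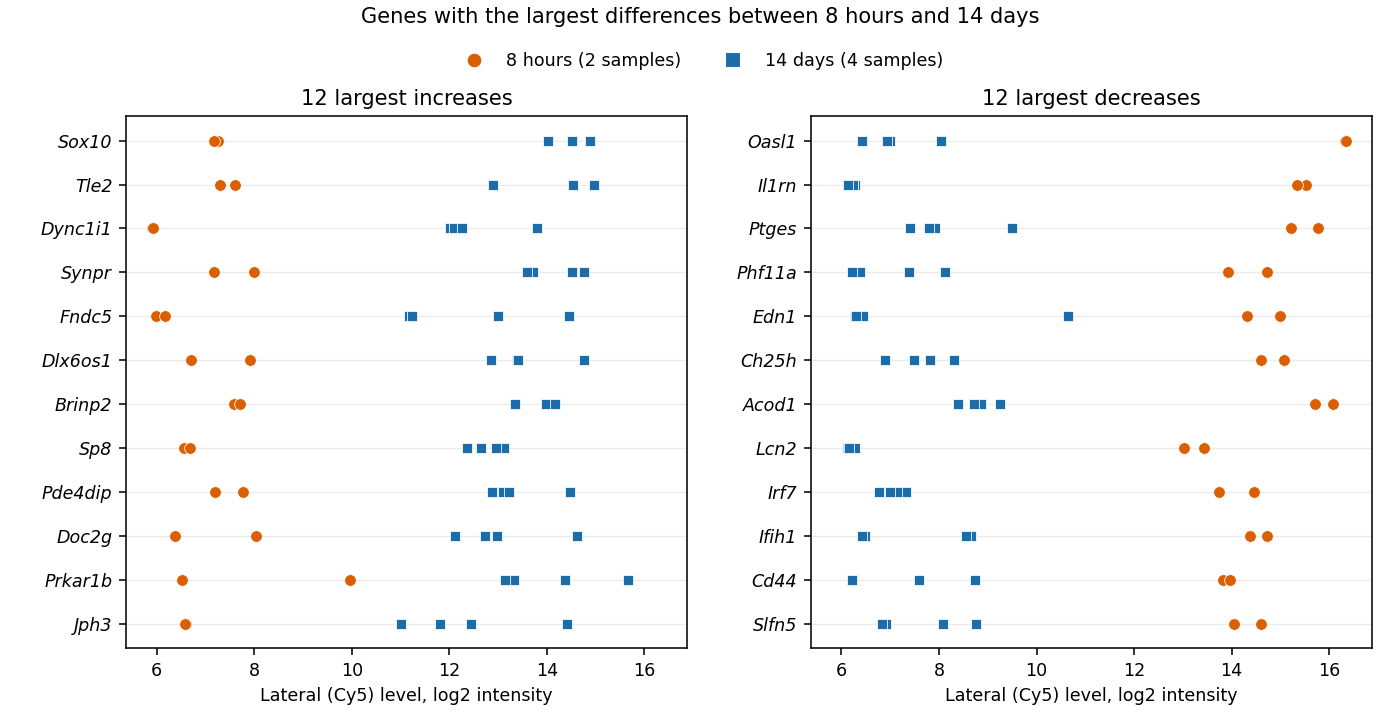
Level of 24 genes in each lateral sample (x axis, log2 intensity of Cy5), with circles for the 2 samples of 8 hours and squares for the 4 samples of 14 days. Outlier spots are left out, so Sox10, Tle2 and Brinp2 show 3 squares, and for each gene drawn the groups do not overlap, which the choice of genes required.

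Interferon response genes had the lowest median of the 46 lists. Interferons are cytokines of antiviral defence, and their target genes encode RNA sensors, nucleases, effector proteins and the transcription factors that carry the signal. Of 34 members tested 23 fell and 0 rose, 33 had a negative difference, and the list median was -5.30. Oasl1, an inhibitor of interferon production, stood at 16.33 and 16.36 at 8 hours and at 6.99, 6.93, 6.43 and 8.05 at 14 days. The groups were far apart, and 3 of the 4 samples of 14 days were well above background. The gene fell by 9.25 ± 0.82 (608-fold, adjusted p = 5.61e-05). Irf7, the transcription factor that drives type I interferon genes, stood at 13.73 and 14.46 and then at 7.33, 7.14, 6.77 and 6.99. It fell by 7.04 ± 0.52 (adjusted p = 1.02e-05), with little spread among the samples of 14 days. Ifih1, a sensor of double-stranded RNA in the cytoplasm, stood at 14.38 and 14.72 and then at 8.67, 6.49, 8.56 and 6.41, and fell by 7.02 ± 0.77. Its level at 14 days was well above background in 2 of 4 samples. Ifit1, which binds viral RNA, stood at 15.40 and 15.49 and then at 6.81, 6.63, 8.68 and 6.45. It fell by 8.30 ± 1.32 (adjusted p = 0.0040), and replicate 3 was the highest of 14 days. Cxcl10, a chemokine that attracts T cells, had 1 usable value at 8 hours, 15.87, against 9.45, 6.19, 7.28 and 8.00 at 14 days, and fell by 8.14 ± 1.37 (adjusted p = 0.0071). With the outlier spot of replicate 2 kept it read 16.20. Among the members without a call, Ifi27 alone had a positive difference, 0.72, and Ifitm3 had -1.51.

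The list was below its level of 8 hours at each intermediate time as well. The list median relative to 8 hours was -2.08 at 1 day, -3.48 at 2 days, -5.78 at 4 days and -5.96 at 7 days. Within the slide of 8 hours it was -6.61 in replicate 3 of 4 days and -6.32 in replicate 3 of 7 days. Without 8 hours replicate 1, and likewise without replicate 2, the list had 8 members called, and without 14 days replicate 1 it had 29. The scanner's own processed signal gave 12 and a fit of the 6 samples alone 8. Its median stayed between -5.72 and -4.81 when any of the 6 samples was left out.

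Promoter sequences are shown for 6 interferon genes that were called lower and hold a short motif, as examples of the 16 members that hold it. Interferon regulatory factors bind repeats of GAAA, and the motif GAAANNGAA was searched on both strands (TTCNNTTTC on the other strand) in the RefSeq promoters of GRCm38.p6, from 250 bases before to 50 after the start of each gene. Matches may overlap. The windows below lie before the start site, are written 5′ to 3′ on the strand of the gene, and carry the matches in capitals with 20 bases on either side.
Ifit1 (chr19:34640760-34640833, + strand): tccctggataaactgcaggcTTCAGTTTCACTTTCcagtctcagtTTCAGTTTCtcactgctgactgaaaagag
Cxcl10 (chr5:92349074-92349122, - strand): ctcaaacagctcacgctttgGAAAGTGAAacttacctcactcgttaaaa
Ifih1 (chr2:62646339-62646387, - strand): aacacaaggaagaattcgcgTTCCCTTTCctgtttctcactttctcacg
Rsad2 (chr12:26456543-26456591, - strand): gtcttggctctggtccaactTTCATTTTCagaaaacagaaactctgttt
Isg15 (chr4:156200856-156200916, - strand): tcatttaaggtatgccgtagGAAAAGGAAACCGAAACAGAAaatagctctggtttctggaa
Gbp2 (chr3:142620585-142620633, + strand): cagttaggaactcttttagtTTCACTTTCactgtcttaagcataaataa

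Of the 26 interferon members with a promoter in the table, 16 held at least 1 match (61.5%), against 2638 of all 27025 genes (9.76%). It was 12 of 18 members called lower and 4 of 8 not called. Of neutrophil genes 1 of 19 held a match, of neuroblast genes 1 of 18, of GABAergic interneuron genes 3 of 20 and of injury genes 3 of 41. Ifit1 and Isg15 each held 3 matches in the window, the latter in tandem at -78 to -66 relative to the start. Isg15 encodes a ubiquitin-like protein and fell by 6.00. Rsad2 encodes an antiviral enzyme and fell by 6.84, and Gbp2 encodes a guanylate-binding GTPase and fell by 5.89. Oasl1, Irf7 and Xaf1 held no match in this window and fell too. A match describes letters in the window and was not tested as a binding site.

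Neutrophil genes were called lower in 10 of 20 members. Neutrophils are short-lived blood granulocytes that enter tissue within hours of injury and do not derive from the SVZ. None of the 20 rose, 16 had a negative difference, and the list median was -3.13. S100a9, a calcium-binding protein that fills the neutrophil cytoplasm, stood at 14.42 and 15.01 at 8 hours and at 6.45, 6.48, 6.44 and 6.72 at 14 days, where no sample was well above background. It was at least 280-fold lower (adjusted p = 0.00355). Its partner S100a8 was at least 190-fold lower and the cysteine protease inhibitor Stfa2 at least 215-fold lower. Stfa1, another stefin, fell by 7.60 ± 1.43. Members with a positive difference were the protease Mmp9 at 3.11 and Mpo, Elane and Cxcr2 at 0.73 to 0.76, and none of these was called. The list median was -3.66 at 1 day, and within the slide of 8 hours -3.66 at 4 days and -2.87 at 7 days. Leaving out 8 hours replicate 2 reduced the members called to 5.

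Injury and acute stress genes were lower in part. Of 48 members 5 fell and 0 rose, 44 had a negative difference, and the median was -2.59. Lcn2, an iron-sequestering lipocalin released in inflammation, stood at 13.03 and 13.43 and then at 6.28, 6.12, 6.12 and 6.15, not well above background in any sample of 14 days. It was at least 119-fold lower (adjusted p = 8.54e-06), and it belongs to the neutrophil list too. Cd44, a receptor for hyaluronan found on reactive glia and leukocytes, stood at 13.83 and 13.96 and then at 8.74, 6.23, 6.22 and 7.60, and fell by 6.70 ± 0.74. The membrane protein gene Emp1 fell by 5.76 ± 1.31, with 10.76 in replicate 3 against 6.72 to 7.31 in the other samples of 14 days, and was called in 1 of the fits that leave out a sample. Il6, a cytokine of the acute phase, was at least 4.93-fold lower. Without 14 days replicate 1 the list had 12 members called, and without 8 hours replicate 2 it had 2.

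Several of the 12 largest decreases lay outside these lists. Il1rn, the natural antagonist of the interleukin-1 receptor, stood at 15.53 and 15.34 and then at 6.27, 6.24, 6.24 and 6.14, and was at least 539-fold lower (adjusted p = 0.00063). Ptges, which makes prostaglandin E, stood at 15.21 and 15.77 and then at 7.41, 7.93, 7.80 and 9.49, and fell by 7.33 ± 1.02. Acod1, the enzyme of activated macrophages that makes itaconate, stood at 15.71 and 16.08 and then at 8.87, 9.25, 8.40 and 8.72, and fell by 7.08 ± 0.90. The groups of all these genes lay far apart. Ch25h, an interferon-inducible hydroxylase of cholesterol, fell by 7.21 ± 0.98, Phf11a, a PHD finger gene, by 7.29 ± 0.99 and Slfn5, an interferon-inducible schlafen, by 6.68 ± 0.99. Edn1, which encodes the vasoconstrictor endothelin, stood at 14.32 and 15.00 and then at 6.28, 6.43, 6.29 and 10.64. It fell by 7.25 ± 1.06, although replicate 4 of 14 days was well above the other samples of that time. Of p53 targets and apoptosis regulators 2 of 28 fell and 1 rose. The death receptor gene Fas fell by 5.21 ± 0.48 and the nuclease gene Aen by 2.62 ± 0.58, and the stress-response gene Sesn1 rose by 2.40 ± 0.47.

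Microglia and macrophage genes did not follow the groups in all samples. Microglia are the resident macrophages of the brain and arise outside the neural lineage. The mean level of the list was 13.6 and 13.9 at 8 hours and 14.7, 9.76, 11.3 and 12.2 at 14 days, so replicate 1 of 14 days was above both samples of 8 hours and the other 3 were below them. Of 25 members 3 were called lower and 0 higher, with a median of -2.55. The lysosomal gene Cd68 stood at 15.40 and 15.47 and then at 7.16, 11.05 and 11.09, with the spot of replicate 1 left out as an outlier. With outlier spots kept that sample read 15.38, near 8 hours, and Cd68 was not called (adjusted p = 0.25). The pore-forming protein gene Mpeg1 likewise read 15.2 in replicate 1 (adjusted p = 0.18 with the spot kept). Cd14, a co-receptor for bacterial lipopolysaccharide, fell by 4.86 ± 1.11 and was called in 1 of the 6 fits that leave out a sample. Without either 8-hour sample 0 members of the list were called. Tmem119 and P2ry12, which mark resident microglia, differed by 2.08 and 1.59 with no call. The list median was -0.64 in the 7-day sample of the slide of 8 hours and -5.67 in the 4-day sample. The part of microglia in the fall of the interferon and injury genes was not tested. Without 14 days replicate 1, in which microglial genes were highest, 29 interferon members were called. The calls over all genes rose from 569 to 836 in that fit as well. Over replicates 1 to 4 of 14 days the mean level of interferon genes was 10.5, 8.05, 8.90 and 9.06. That of injury genes was 11.1, 9.16, 10.1 and 10.5. Both lists were highest in replicate 1 and lowest in replicate 2, as were the microglia genes, and a link between them was not tested. Genes of antigen presentation gave 0 calls among 21 members (10 at an unadjusted p under 0.05) and a median of -1.32, with H2-Q4 at 15.85 and 15.99 and then at 16.46, 12.49 and 14.86 in 3 usable samples.

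**Figure D2:**
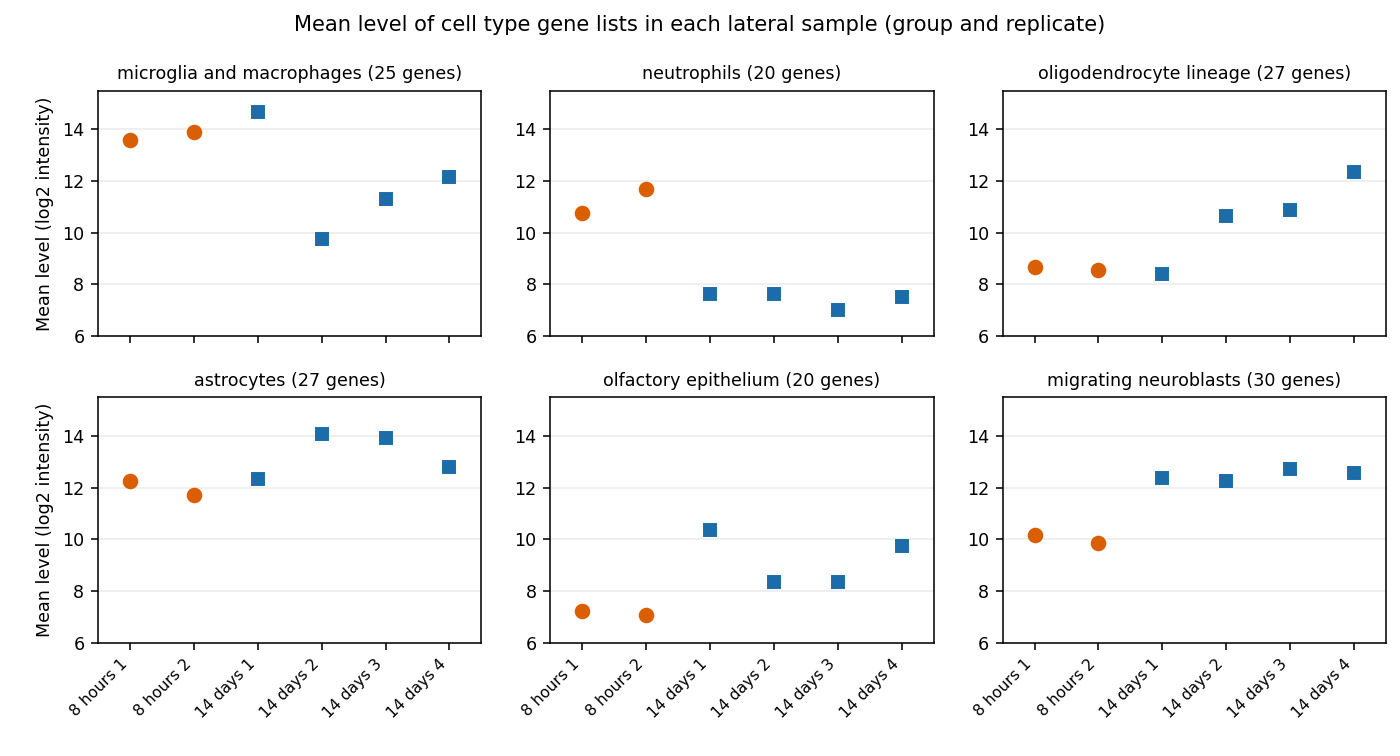
Mean level over the members of 6 gene lists that were measured in each lateral sample (y axis, log2 intensity), with circles for 8 hours and squares for 14 days. Microglia genes reach 14.7 in replicate 1 of 14 days against 9.76 in replicate 2, oligodendrocyte genes run from 8.39 to 12.4 at 14 days, and neuroblast genes lie between 12.3 and 12.7 in all 4 samples of 14 days.

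Dividing cells were assessed from genes of mitosis and of DNA replication. Of 39 mitosis genes 35 had a negative difference, with a median of -1.73, but 0 were called (11 at an unadjusted p under 0.05). Birc5, a subunit of the chromosomal passenger complex, stood at 14.12 and 14.20 at 8 hours and at 13.08, 10.21, 14.47 and 13.73 at 14 days, where replicate 3 exceeded both early samples. Mean mitosis levels at 14 days ran from 8.07 in replicate 2 to 10.99 in replicate 3, against 11.22 and 10.99 at 8 hours, so the groups touched. Of 40 DNA replication genes 38 had a negative difference, with a median of -1.61, and 1 fell, beside 1.13% of all genes called lower. This was Pole, the catalytic subunit of the leading-strand polymerase, at 10.84 and 9.53 and then at 7.13, 6.95, 7.62 and 7.83 (difference -2.80 ± 0.61, adjusted p = 0.028). Its call was lost in 3 of the 6 fits that leave out a sample, and without 14 days replicate 4 the list had 4 members called. The helicase subunit gene Mcm7 differed by -0.13 ± 0.30. Both lists were above 8 hours before they were below it, with mitosis medians of 0.99 at 1 day, 1.53 at 2 days, 0.35 at 4 days and -1.90 at 7 days. Cdkn2b, an inhibitor of the kinases that start the cell cycle, stood at 11.49 and 11.38 and then at 7.37, 7.76, 7.05 and 6.91, and fell by 4.16 ± 0.60 (adjusted p = 0.0021). Rb1, the retinoblastoma gene, rose by 1.26 ± 0.30 but was called in 0 of the 6 fits that leave out a sample.

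Genes of radial glia and stem cells gave 0 calls among 31 members (5 at an unadjusted p under 0.05), with a median of -0.46. Vim stood at 16.22 and 16.22 and then at 14.33, 15.03 and 14.72, and Slc1a3, the glutamate transporter of radial glia and astrocytes, at 14.87 and 14.86 and then at 15.86 and 16.24 in the samples with usable spots. The former lay below 8 hours and the latter above it, and neither passed the test (adjusted p = 0.15 and 0.29). The omitted spots of Slc1a3 read 14.28 and 15.03, and with them its groups overlapped and the difference went from 1.18 to 0.49. Of 17 genes of transit amplifying cells, the rapidly dividing progenitors, the median was -0.44, and 1 rose, beside 1.1% of all genes called higher. This was Dlx2, a homeobox factor of the lateral wall, at 11.13 and 10.96 and then at 12.79, 13.86, 12.86 and 13.61 (difference 2.23 ± 0.48, adjusted p = 0.025). Its call was lost in 4 of the 6 fits that leave out a sample.

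Genes of migrating neuroblasts were called higher in 12 of 30 members. They encode proteins of the microtubules, adhesion molecules and RNA-binding proteins of young neurons on the move. All 30 members tested had a positive difference, 0 fell, and the median was 2.86. Stmn4, a microtubule regulator of the stathmin family, stood at 10.40 and 10.33 at 8 hours and at 15.14, 15.42, 15.29 and 15.38 at 14 days. The samples within a group were within 0.3 of each other in this gene, and it rose by 4.95 ± 0.38 (30.8-fold, adjusted p = 1.45e-05). Dcx, the doublecortin gene that marks migrating neuroblasts, stood at 10.75 and 11.10 and then at 16.41, 15.47 and 15.35, with replicate 1 left out as an outlier spot. It rose by 4.82 ± 0.92 (adjusted p = 0.016), and the omitted spot read 14.98. Nrep, a regulator of neurite growth, stood at 7.43 and 7.12 and then at 12.29, 12.81, 12.42 and 11.87, and rose by 5.07 ± 0.92. Dlx5, a homeobox factor of GABAergic precursors, stood at 9.36 and 8.96 and then at 13.79, 14.48, 13.84 and 14.13, and rose by 4.90 ± 1.02. The lowest differences were those of Robo1 at 0.26 and of Erbb4 at 0.45, the latter well above background in 0 samples of 8 hours. The median was 1.97 at 2 days, 3.61 at 4 days and 3.56 at 7 days, and within the slide of 8 hours 3.29 at 4 days and 3.52 at 7 days. Without 8 hours replicate 1 or 2 the members called were 5 and 4.

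Subpallial factors, which give the lateral wall its identity, rose in 4 of 16 members and fell in 0, with a median of 1.06. Sp8, a zinc finger factor needed by olfactory bulb interneurons, stood at 6.56 and 6.68 and then at 12.36, 13.12, 12.66 and 12.96, and rose by 6.15 ± 0.62 (71.1-fold, adjusted p = 0.00014). Meis2 stood at 14.28 and 14.12 and then at 16.27 and 15.82 in the samples with usable spots, and with outlier spots kept its call was lost (adjusted p = 0.058). Without either 8-hour sample 1 member was called. Dlx6os1, a long noncoding RNA gene antisense to Dlx6, stood at 6.71 and 7.92 and then at 13.38, 14.75, 12.85 and 13.41. It rose by 6.29 ± 0.78 (adjusted p = 0.00066) and Dlx6 itself differed by 1.69 with no call. Whether the labelled cDNA kept the strand was not stated in the sources used here. Tle2, a corepressor of the Groucho family, stood at 7.61 and 7.29 and then at 12.90, 14.96 and 14.53, and rose by 6.68 ± 0.77. With its outlier spot kept, replicate 1 read 11.42 and the difference was 6.00. Of 17 pallial and glutamatergic factors, which mark the dorsal territory, 0 were called (3 at an unadjusted p under 0.05), with Pax6 at 8.53 and 9.72 and then at 10.75, 10.11, 10.62 and 11.85.

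Genes of GABAergic olfactory interneurons rose in 8 of 28 members and fell in 0, with a median of 2.37. Gad1, which makes GABA from glutamate, stood at 8.84 and 8.20 and then at 13.30, 14.29, 13.91 and 14.44, and rose by 5.46 ± 0.68 (44.2-fold, adjusted p = 0.00071). Synpr, a synaptic vesicle protein of granule cells, stood at 7.17 and 7.99 and then at 13.72, 14.75, 13.60 and 14.52, and rose by 6.57 ± 0.70 (adjusted p = 0.00023). The second GABA-synthesizing enzyme gene Gad2 (4.46) and the vesicular GABA transporter gene Slc32a1 (4.31) rose too. Without either 8-hour sample 3 members were called. Pcp4l1 stood at 7.59 and 10.38 and then at 12.73, 16.27 and 15.30 (difference 5.78 ± 1.37, adjusted p = 0.050), and its call held in 1 of the 6 fits that leave out a sample. The mean of Pcp4l1 was 8.99 at 8 hours, 7.50 at 4 days and 8.63 at 7 days before 14.77 at 14 days, whereas Gad1 was at 14.42 by 4 days. Of the 28 members, 3 were well above background in no sample of 8 hours and 1 in no sample of 14 days. The latter was Scgn, a marker of a single interneuron class, with 0 samples in either group. Calb1, another such marker, was well above background in 1 sample of 8 hours and 2 of 14 days. Of 14 genes of dopaminergic periglomerular neurons 0 rose and 1 fell, beside 1.13% of all genes called lower. This was Gch1, an enzyme of the dopamine cofactor, which is also induced in inflammation, at 10.80 and 12.01 and then at 9.61, 6.31, 6.43 and 6.30. It fell by 4.24 ± 0.87, and replicate 1 was the highest of 14 days.

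Genes of the synapse rose in 8 of 41 members and fell in 0, with 40 positive differences and a median of 1.77. Unc13a, which primes synaptic vesicles for release, stood at 6.18 and 6.79 and then at 11.30, 13.50, 10.76 and 11.41, and rose by 5.26 ± 1.09 (adjusted p = 0.021). Bsn, a scaffold of the presynaptic active zone, stood at 10.03 and 8.93 and then at 13.26, 14.75, 13.69 and 14.09, and rose by 4.46 ± 0.85. Replicate 2 of 14 days was the highest sample for both. Its partner Pclo rose by 4.24 ± 0.86 on 3 usable samples of 14 days. Dlg2, a postsynaptic scaffold, was well above background in 0 samples of 8 hours and in 4 of 14 days and was at least 23.4-fold higher (adjusted p = 0.050), with a call in 1 of the 6 fits that leave out a sample. With either 8-hour sample left out 1 member of the list was called. Doc2g and Jph3, both named among the largest increases, act at the vesicle and at contacts of the endoplasmic reticulum with the plasma membrane. Doc2g stood at 6.38 and 8.03 and then at 12.98, 14.62, 12.11 and 12.73, and Jph3 at 6.61 and 6.59 and then at 11.81, 14.41, 12.45 and 11.01. They rose by 5.90 ± 0.74 and 5.82 ± 0.70.

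The neuronal cytoskeleton list rose in 4 of 29 members and fell in 0, with a median of 1.82. Kif5a, a kinesin motor of axonal transport, stood at 8.74 and 9.90 and then at 13.40, 15.60, 14.62 and 14.52, and rose by 5.21 ± 0.64 (37.1-fold, adjusted p = 0.00066). The microtubule-associated protein genes Map1b and Mapt rose by 4.16 ± 0.73 and 2.80 ± 0.44, the latter on 3 samples of 14 days. Dync1i1, an intermediate chain of the dynein motor in neurons, stood at 5.89 and 5.92 and then at 12.02, 13.80, 12.09 and 12.26. It was well above background in 0 samples of 8 hours and was at least 95.1-fold higher (adjusted p = 0.0032). Without 14 days replicate 1 the list had 11 members called, and without 8 hours replicate 1 it had 2.

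RNA-binding and splicing regulators of neurons rose in 6 of 21 members and fell in 0, with a median of 1.57. Srrm4, which includes microexons in neuronal transcripts, stood at 8.11 and 8.08 and then at 13.40, 14.28, 12.31 and 12.02, and rose by 4.90 ± 0.75 (adjusted p = 0.0029). The neuronal Hu proteins Elavl3 and Elavl4 rose by 3.50 ± 0.47 and 3.85 ± 0.79, and Celf4 rose by 3.80 ± 0.60. Without 8 hours replicate 1 the list had 3 members called. Of the genes named, Elavl3 and Srrm4 were called in all 6 fits that leave out a sample.

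Genes of signal reception rose in a few members, beside 1.1% of all genes called higher. Of 33 glutamate and GABA receptor genes 2 rose and 0 fell. The AMPA receptor subunit gene Gria1 stood at 7.93 and 8.39 and then at 13.78, 14.19, 13.10 and 13.25, and rose by 5.42 ± 0.75 (adjusted p = 0.0015). Gria2 rose by 3.46 ± 0.80 on 2 usable samples of 14 days and was called in 0 of the fits that leave out a sample. Of 39 voltage-gated channel genes 2 rose, the calcium channel subunit gene Cacna2d3 by 4.61 ± 0.50 and the sodium channel gene Scn8a by 4.19 ± 0.64, and 0 fell. Of 37 axon guidance genes 3 rose and 0 fell. Sema5a, a guidance cue, rose by 4.64 ± 0.47 and the semaphorin receptor genes Plxna4 and Plxna2 by 3.38 ± 0.38 and 1.55 ± 0.37, of which Plxna2 was called in 0 of the fits that leave out a sample. Among the other large increases, the protein kinase A subunit gene Prkar1b stood at 6.53 and 9.97 and then at 14.37, 15.67, 13.32 and 13.13. It rose by 5.88 ± 0.87, although its 2 early samples differed by over 3 log2 units. Pde4dip, a centrosome and Golgi scaffold, rose by 5.94 ± 0.80 and the neural gene Brinp2 by 6.19 ± 0.86 on 3 samples of 14 days. Fndc5, the precursor of irisin, was well above background in 0 samples of 8 hours and was at least 82.3-fold higher at 14 days, where it stood at 11.17, 14.45, 12.99 and 11.22.

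**Figure D3:**
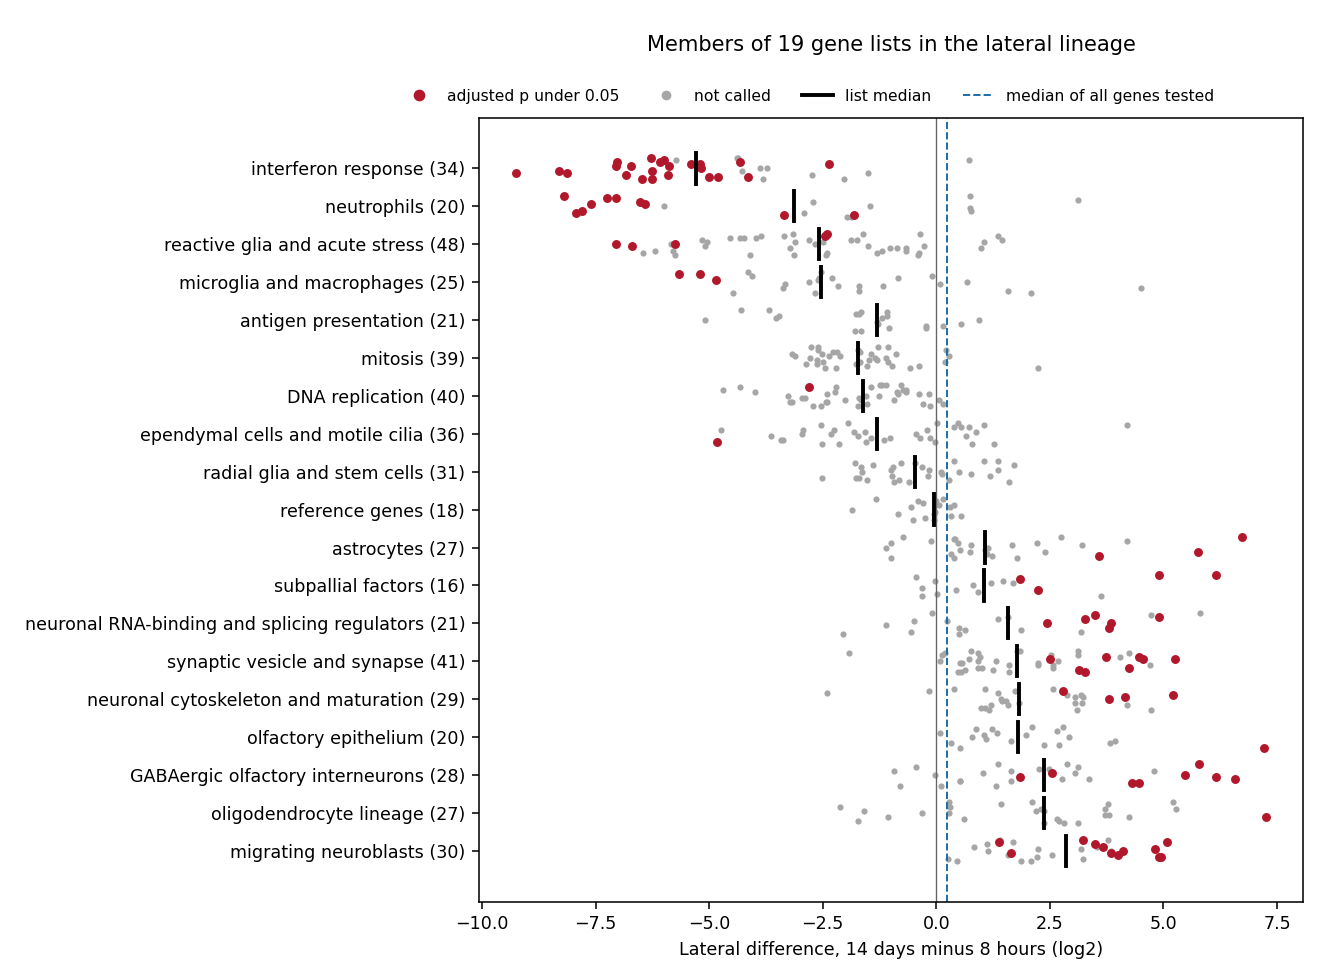
Difference between 14 days and 8 hours in the lateral lineage (x axis, log2) for each tested member of 19 gene lists, with the number of members in brackets, called members in red, the list median as a black bar and the median of all genes as a dashed line. Interferon response members lie furthest to the left, with 23 of 34 called, and all 30 neuroblast members lie to the right of 0.

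Astrocyte genes rose in 3 of 27 members and fell in 0, with a median of 1.07. Gjb6, a gap junction connexin of mature astrocytes, stood at 5.96 and 5.97 at 8 hours, in 0 of 2 samples well above background, and at 13.11, 13.53, 13.28 and 10.82 at 14 days. It was at least 103-fold higher (adjusted p = 0.014), with replicate 4 the lowest of 14 days. Agt, the angiotensinogen gene, stood at 6.68 and 6.64 and then at 9.97, 14.43, 14.28 and 11.02, and rose by 5.77 ± 1.09. Ntsr2, a neurotensin receptor of astrocytes, rose by 3.58 ± 0.84 and was called in 1 of the fits that leave out a sample. With either 8-hour sample left out 0 members were called. Gfap, the intermediate filament of astrocytes, stood at 12.41 and 11.84 and then at 9.55, 13.22, 11.15 and 10.59, with no call. The list was below 8 hours at 4 and 7 days, with medians of -1.68 and -1.68, and within the slide of 8 hours of -2.40 and -2.05. Ntsr2 was likewise below its 8-hour mean of 11.94 at 4 days (9.06) and 7 days (10.43) and reached 15.52 at 14 days. Before that it had been above 8 hours, with 14.57 at 1 day and 13.3 at 2 days.

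Of 27 genes of the oligodendrocyte lineage 1 rose and 0 fell, beside 1.1% of all genes called higher, and the median was 2.37. The gene was Sox10, a transcription factor of this lineage, at 7.26 and 7.17 at 8 hours and at 14.03, 14.87 and 14.51 at 14 days in 3 samples. It rose by 7.25 ± 0.68 (153-fold, adjusted p = 0.00014). The omitted spot of replicate 1 read 9.77, far below the other samples of 14 days, and with it the difference was 6.08 ± 1.15 (adjusted p = 0.013). The mean level of the list was 8.39 in replicate 1 of 14 days, below 8.68 and 8.56 at 8 hours, and 10.6, 10.9 and 12.4 in replicates 2 to 4. Without replicate 1 the list had 5 members called. The myelin gene Mobp had a difference of 5.21 with no call, and Olig2 and Olig1 had -2.13 and -1.72. Sox10 was at 8.95 by 4 days and 11.98 by 7 days, and within the slide of 8 hours 4.75 above that time in the 7-day sample. Erbb3, a neuregulin receptor of oligodendrocyte precursors and other glia, stood at 7.36 and 7.25 and then at 11.89, 13.38, 13.72 and 14.13, and rose by 5.98 ± 1.20 (adjusted p = 0.018).

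Ependymal cells line the ventricle and bear motile cilia. Of 36 of their genes 1 fell and 0 rose, beside 1.13% of all genes called lower, so the count of calls says little about the list. The median was -1.30, and 11 members had a positive difference. Among these was S100b, also on the astrocyte list, at 4.19 ± 1.26 with no call (adjusted p = 0.14 in limma). Foxj1, the master regulator of motile cilia, stood at 13.23 and 12.97 and then at 6.83, 9.04 and 8.94, with replicate 3 left out. It fell by 4.83 ± 0.81 (adjusted p = 0.0069), and the omitted spot read 11.25. The list median was 0.29 at 1 day and -2.07 and -2.08 at 4 and 7 days, and Foxj1 was at 13.37 at 2 days and 6.54 at 7 days. Hydin, a gene of the ciliary axoneme, differed by 0.38 ± 0.40. The 4 genes of the nuclear factor I family gave 0 calls (1 at an unadjusted p under 0.05), with Nfib at 12.05 and 12.64 and then at 13.73, 15.13, 14.34 and 14.35.

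**Figure D4:**
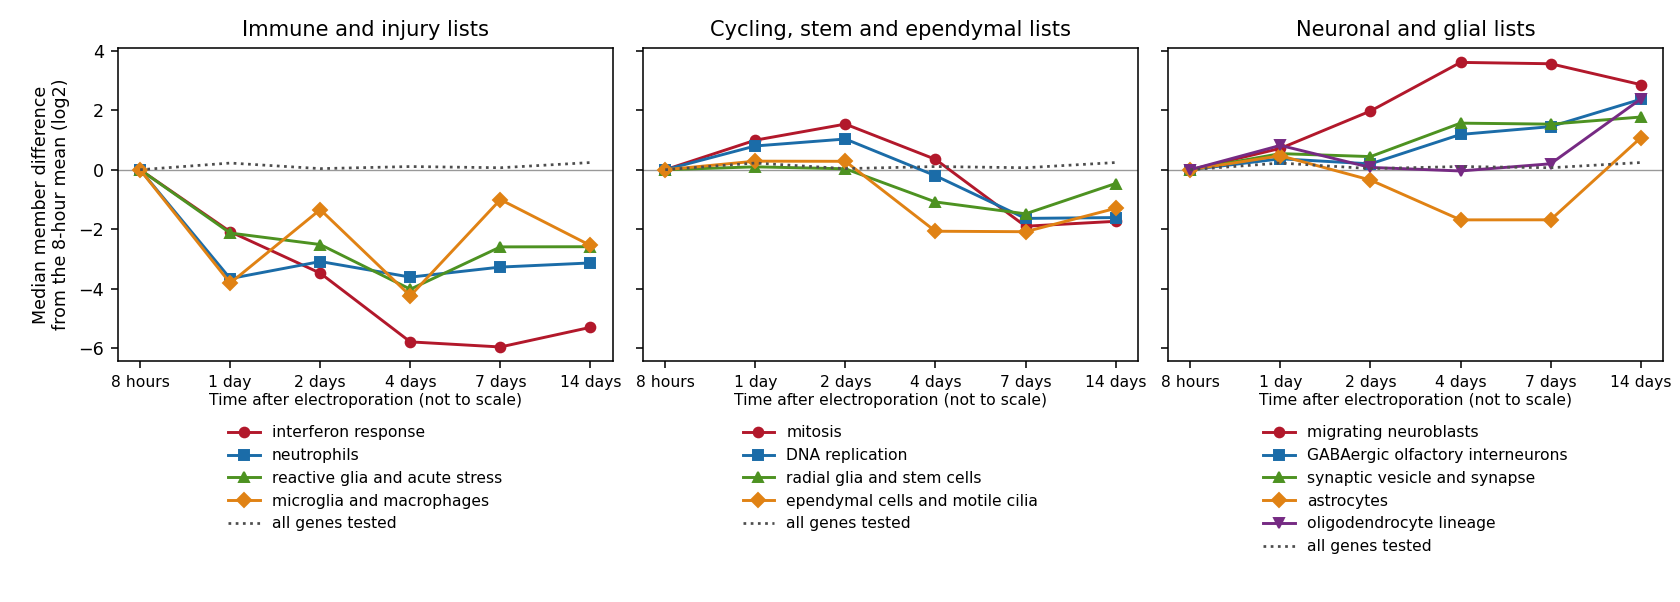
Median over list members of the mean difference from 8 hours (y axis, log2) at the 6 times (x axis, not to scale), with a dotted line for all genes tested. Interferon genes reach -5.96 at 7 days, mitosis genes peak at 1.53 at 2 days, neuroblast genes reach 3.61 at 4 days, and astrocyte genes go from -1.68 at 7 days to 1.07 at 14 days.

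The largest changes differed in when they took place. Lcn2 was at 6.64 by 1 day and Oasl1 at 9.86, whereas Cd44 was still at 11.68 at 1 day and 9.81 at 2 days. Among the increases, Sp8 was at 9.58 at 1 day, 12.56 at 2 days and 14.46 at 4 days, and at 12.77 at 14 days. Tle2 was at 12.23 by 2 days and Dync1i1 at 12.04. Synpr, Pde4dip and Brinp2 reached 14.26, 14.43 and 14.06 at 4 days. Sox10, Fndc5 and Doc2g were later, with Fndc5 at 7.07 at 4 days, 9.72 at 7 days and 12.46 at 14 days, and Doc2g at 9.98, 10.59 and 13.11. These means rest on 2 to 4 samples per time and were not tested between neighbouring times.

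Signalling lists held at most 1 call in a direction each, beside 1.1 and 1.13% of all genes called higher and lower. In EGF and FGF signalling 1 of 29 rose, Erbb3, and 1 fell, the ligand gene Nrg1, by 3.61 ± 0.68. Of 34 BMP and TGF-beta genes 1 rose, Ltbp1, which stores latent TGF-beta in the matrix, by 3.36 ± 0.69. Of 15 Hedgehog genes 1 fell, the co-receptor gene Boc, by 2.03 ± 0.44, with a call in 2 of the fits that leave out a sample. In the retinoic acid pathway, the binding protein gene Crabp1 rose by 5.22 ± 1.19 on 2 usable samples of 14 days, and it was called in 0 of the fits that leave out a sample. The Notch and Wnt lists gave 0 calls among 26 and 39 members, with 6 and 6 at an unadjusted p under 0.05. Of 31 immediate early genes 2 rose and 1 fell. Npas4, a factor induced by neuronal activity, stood at 5.65 and 7.77 and then at 12.23, 10.35, 11.66 and 12.05, and rose by 4.86 ± 0.95. Fosb rose by 4.28 ± 0.75, with 11.83 in replicate 3 against 14.33 to 14.72 in the other samples of 14 days, and Fosl1 fell by 2.94 ± 0.66, called in 1 of the fits that leave out a sample. Of 20 neuropeptide precursor genes 1 rose and 2 fell. The granin gene Chgb rose by 4.23 ± 0.96 (called in 1 of those fits), and prodynorphin (Pdyn) and neurotensin (Nts) fell by 5.38 ± 0.92 and 2.45 ± 0.35.

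Lists of housekeeping and matrix genes held few or no calls, beside 1.1 and 1.13% of all genes called higher and lower. Lists of these sizes would hold few calls at that share. Of 72 cytosolic ribosomal protein genes 1 fell, the paralog Rpl39l, by 4.09 ± 0.53, and of 78 respiratory chain genes 1 fell, the muscle-type subunit gene Cox6a2, by 2.22 ± 0.48. The medians of these lists were 0.12 and 0.28, and over all settings run they ranged from -0.02 to 0.85 and from 0.16 to 0.88, while that of all genes ranged from 0.15 to 0.46. The 18 reference genes gave a median of -0.06, which ranged from -0.21 to 0.51 over the settings, and 0 calls in limma (0 at an unadjusted p under 0.05). DNA methylation enzymes (17 genes), cholesterol synthesis and uptake (33), collagens and laminins (27) and sex-linked genes (8) gave 0 calls, with 5, 3, 8 and 0 members at an unadjusted p under 0.05.

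Markers of other tissues were read in the same samples. Endothelial and mural genes (25 members, median -0.51), erythroid genes (9, median 0.24), choroid plexus genes (12, median 0.97) and leptomeningeal genes (18, median 0.81) gave 0 calls, with 6, 0, 3 and 3 at an unadjusted p under 0.05. Vtn, made by pericytes, stood at 12.75 and 9.78 and then at 8.73, 14.36, 15.88 and 15.75, so the samples of 14 days differed by over 7 log2 units. The globin gene Hba-a2 stood at 13.25 and 12.96 and then at 17.18 and 16.94 in the samples with usable spots, and the 2 omitted spots read 11.98 and 16.44. All 20 genes of the olfactory epithelium had a positive difference, beside 16362 of all 25540 genes. Of the 20, 7 were well above background in no sample of 8 hours, and 1 rose, beside 1.1% of all genes called higher. The list mean was 7.21 and 7.07 at 8 hours and 10.4, 8.34, 8.34 and 9.76 at 14 days, highest in replicate 1. The gene called was Gng13, a G protein subunit that olfactory neurons share with other neurons, at 6.81 and 6.67 and then at 9.15, 15.60, 15.09 and 16.00. It was lowest in replicate 1, opposite to the list, and rose by 7.22 ± 1.48, with a call in 2 of the fits that leave out a sample. Omp, the defining protein of mature olfactory sensory neurons, stood at 9.43 and 9.22 and then at 11.04, 10.48, 11.41 and 10.92 (adjusted p = 0.085). The part of these cells in the neuronal differences was not tested.

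The second comparison asked whether the lateral change differed from the dorsal one, through the lateral minus dorsal log2 ratio within each array, in which a constant dye effect of a probe cancels between times. The dorsal channel had 41.0% of probes well above background in replicate 2 of 14 days, the least of these arrays. Genes could enter this test through signal in either colour on at least 2 arrays. Of 26402 genes tested 46 were called, which is 0.174%. The lateral change was higher than the dorsal one in 38 and lower in 8. Some of the 38, such as Reg4, Pklr and Hpgd, were well above background in 0 lateral samples of either time and 0 dorsal samples of 14 days. For these no lateral change was measured, and the split of 38 and 8 rests in part on dorsal signal of 8 hours set against the floor. The dorsal samples had list medians of -4.73 for interferon, -3.06 for neutrophil and 1.65 for neuroblast genes, beside -5.30, -3.13 and 2.86 in the lateral samples. Not one member of these 3 lists was called for a difference between the changes. With 0.174% of all genes called, lists of this size would hold few or no calls in any case. The absence of calls therefore does not tell whether the walls shared these changes.

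Dlx2, the lateral wall factor, was at 11.13 and 10.96 in the lateral and 6.76 and 7.36 in the dorsal samples of 8 hours. At 14 days it was at 12.79, 13.86, 12.86 and 13.61 in the lateral and 11.31, 13.56, 11.22 and 13.08 in the dorsal samples. The lateral sample was higher on both arrays of 8 hours and on all 4 of 14 days, where the ranges of the walls overlapped. Such levels are set across dyes and are open to dye bias. The lateral change was smaller by 3.00 ± 0.40 (adjusted p = 0.013). Dmrta2, a patterning factor of the cortex, went the other way. It was at 7.49 and 7.57 in the lateral and 11.99 and 11.67 in the dorsal samples of 8 hours, and at 10.44, 9.40, 9.08 and 10.42 against 11.03, 8.68, 8.80 and 7.35 at 14 days. The lateral change exceeded the dorsal one by 5.17 ± 0.78 (adjusted p = 0.021).

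The other 8 genes named were likewise apart at 8 hours, and their ranges overlapped between the walls at 14 days, although Dct was higher and Tnfsf4 lower in the lateral sample on all 4 arrays. All named genes were chosen by this test, so a gap between the walls that differs between the times follows from the choice. Dct, an enzyme of melanin synthesis, was at 13.19 and 13.31 in the dorsal but 8.33 and 8.02 in the lateral samples of 8 hours, and its lateral change was higher by 6.38 ± 0.92. At 14 days it was between 6.44 and 10.79 in the lateral and 6.12 and 7.57 in the dorsal samples, and its own lateral difference was -0.08. The membrane repair gene Dysf, the cytochrome gene Cyp4b1 and the homeobox gene Prrx2 were likewise higher in the dorsal samples of 8 hours, and differed by 4.58 ± 0.76, 4.43 ± 0.38 and 4.41 ± 0.70. Cyp4b1 was well above background in 0 of 4 dorsal samples of 14 days, so the size of its difference is not a measured one. In the opposite direction, the adhesion receptor gene Adgrf5 was at 10.35 and 8.84 in the lateral and 5.91 and 6.78 in the dorsal samples of 8 hours, and its change was lower by 3.22 ± 0.46. It was well above background in 0 of 4 dorsal and 1 of 4 lateral samples of 14 days, so this size rests on signals near the floor. The transcription factor gene Gata2, the TNF family ligand gene Tnfsf4 and the galectin gene Lgals1 differed by -2.85 ± 0.48, -2.57 ± 0.30 and -2.39 ± 0.35. At 14 days Gata2 and Tnfsf4 were each well above background in 1 of 4 lateral and 1 of 4 dorsal samples. The sizes of Gata2 and Tnfsf4 rest on signals near the floor as well. Adgrf5, Gata2 and Tnfsf4 also fell in the lateral samples on their own, whereas Lgals1 was at 16.15 and 16.23 and then at 15.70, 12.37, 13.87 and 13.23 with no call there. Cyp4b1, Adgrf5 and Tnfsf4 were called in all 6 fits that leave out an array, and Dysf in 0. With limma on the authors' deposited table of log ratios 0 genes were called (1709 at an unadjusted p under 0.05), and with limma on the 6 arrays alone 0 (1899 at an unadjusted p under 0.05). Without 8 hours replicate 2 the count was 126.

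**Figure D5:**
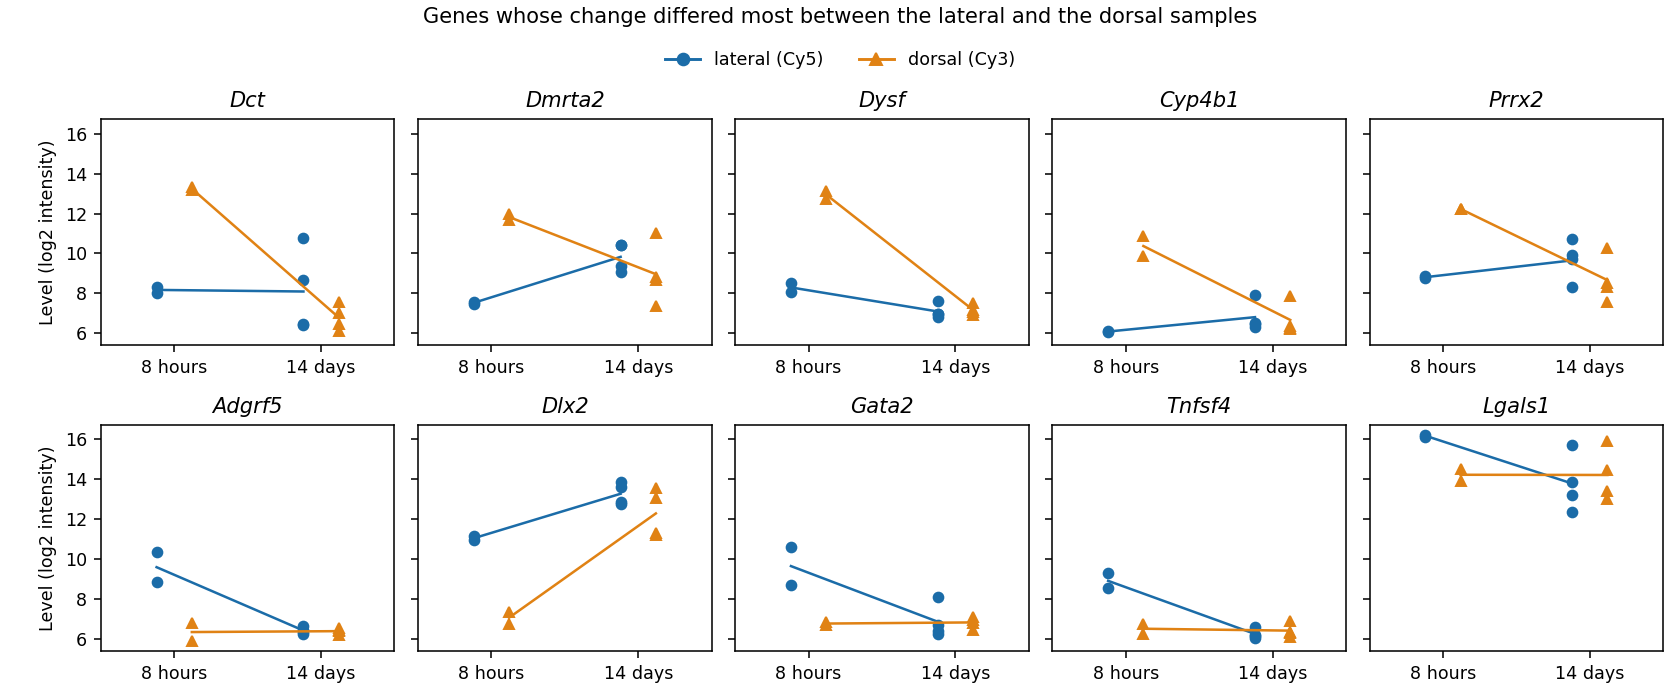
Level (y axis, log2 intensity) of the 10 genes with the largest called differences between the lateral and the dorsal change, with blue circles for lateral and orange triangles for dorsal samples at 8 hours (2 arrays) and 14 days (4 arrays), and lines between the group means. The walls are apart at 8 hours and their ranges overlap at 14 days, as for Dlx2 with 11.05 against 7.06 as means of 8 hours. The genes were chosen by this test, so a gap that differs between the times follows from the choice. At 14 days Cyp4b1, Adgrf5, Gata2 and Tnfsf4 are well above background in at most 1 of 4 samples of either wall.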

How the data were processed

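The 17 arrays were Agilent 2-colour arrays of amplified cDNA, of which 200 ng per sample was labelled, per the labels' protocols. Spot values were deposited as intensity on a linear scale. Per the file headers the authors used the scanner software Feature Extraction, version 10.7.3.1 for the 6 arrays and version 10.5.1.1 for most others. The log10 ratio of red over green, deposited in the same files, was set against the value table of the series. By this check the deposited values are log2 of Cy3 over Cy5 (r of -0.90 at the least, slope of -3.30 on the log10 ratio at 8 hours replicate 1), with a normalization not given in the sources used here. At 8 hours its medians were -0.0095 and -0.0094.

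Background was corrected with normexp (offset 50), log ratios by loess within arrays and mean intensities by Aquantile between arrays. Of 41174 probes, 26876 were named by RefSeq accession, 3241 by symbol and 11057 kept the name in the files. Outlier spots were left out and no spot was saturated in Cy5. Probes well above background in Cy5 on at least 2 arrays were kept and the brightest represented a gene. For the comparison with the dorsal change, genes without such a probe could enter through either colour. Limma 3.58.1 (R 4.3.3, package data.table of version 1.17.8) fitted all 17 lateral samples with a mean per time, with Benjamini-Hochberg adjustment over all genes and two-sided tests. The fit was checked on simulated data. Matplotlib 3.10.9 (Python 3.11.15) drew the figures. Where none of a group's arrays measured a gene above background, the fold is a bound, written "at least". The dim group then enters with its own signal or, if higher, with the dimmest signal still well above background on that array, and dye bias can enter such bounds.

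The samples and the 46 gene lists were chosen with earlier results of these data known. Genes were named by a rule: the 12 largest increases and decreases among genes called with each of the 6 samples left out, whose groups did not overlap and which had a RefSeq accession and no predicted-gene symbol, up to 4 called members of each list in each direction (where fewer than 2 were called, the 2 brightest members), and the 5 largest called differences from the dorsal change in each direction. Some genes that the rule names are not reported here. Members named outside this rule were chosen after their values were seen. The array number limits the precision. Same-numbered replicates did not deviate together (r of -0.07 and -0.06 across genes), so the numbers were not taken as pairs. Alternatives covered the background correction, the normalization, the filters, the probes per gene, the samples fitted, array weights, the slide and the replicate number.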

Additional observations from a re-analysis of the deposited data

Results flagged for a closer look

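In 14 of the 139 genes named by rule 1 sample of 14 days lay far from the other 3. The gap was at least 0.838 of the range of the group, which chance alone gives in about 1 of 20 groups of 4. Some of the 14 would thus be flagged by chance, and the rule does not tell which. Replicate 1 stood apart for Gch1 at 9.61 against 6.43 for the next sample, for Gng13 at 9.15 against 15.1, for Col4a2 at 11.04 against 12.8 and for Rpl39l at 7.67 against 6.31. Replicate 2 stood apart for Dync1i1 at 13.8 against 12.3, for Stfa1 at 7.62 against 6.65 and for Acta2 at 16.1 against 15.3. Replicate 3 stood apart for Pdyn at 9.22 against 6.81, for Ifit1 at 8.68 against 6.81, for Fosb at 11.8 against 14.3 and for Emp1 at 10.8 against 7.31. Replicate 4 stood apart for Edn1 at 10.6 against 6.43, for Gjb6 at 10.8 against 13.1 and for S100a9 at 6.72 against 6.48. For S100a9 all 4 samples were near background.

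The change over time differed between the walls in the test of the difference itself for 10 named genes. The lateral change exceeded the dorsal one by 6.38 for Dct, 5.17 for Dmrta2, 4.58 for Dysf, 4.43 for Cyp4b1 and 4.41 for Prrx2. It was below the dorsal one for Adgrf5 (-3.22), Dlx2 (-3.00), Gata2 (-2.85), Tnfsf4 (-2.57) and Lgals1 (-2.39). The sizes of Cyp4b1, Adgrf5, Gata2 and Tnfsf4 rest on signals near background at 14 days.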

How the results depend on the processing

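None of the 87 called genes named for the lateral comparison and none of the 10 of the comparison with the dorsal change reversed under any alternative run, and 27 of the 87 kept their call under all of them. For the lateral comparison, with 280 genes higher and 289 lower, the scanner's processed signal gave 110 and 123, the 6 samples alone 99 and 153, array weights 1116 and 766, slide as a random block 2264 and 1713 (estimated correlation -0.24), and leaving out 1 day replicate 1 and 14 days replicate 2 together 703 and 453. Leaving out 1 sample gave 88 to 408 higher and 147 to 428 lower. The totals were 235 without 8 hours replicate 1, 253 without 8 hours replicate 2 and 836 without 14 days replicate 1. The other alternatives stayed within 1.5 times. The median difference of all genes, 0.24, was 0.46 with the scanner's processed signal, and differences are read relative to it. With the replicate block the lateral comparison gave 196 higher and 214 lower, and the comparison with the dorsal change 10. Keeping outlier spots, added after seeing the data, gave 287 and 281, of which 555 genes were shared. For the comparison with the dorsal change, with 46 genes, median centring gave 10, the scanner's processed signal 5, no background correction 28, the values the authors deposited 0 (limma), the stricter filter 16, the 6 arrays alone 0, array weights 114, slide as a random block 381, and leaving out the 2 arrays together 26. Leaving out 1 array gave 35 to 126, the highest without 8 hours replicate 2. Depth, read as signal over background, limits genes that stood near background at 14 days, where replicate 2 had the fewest probes well above background.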
